A study of Mus musculus with 24 samples.

Results

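The long noncoding RNAs (ncRNAs) described here are the transcripts of 6 host genes of small nucleolar RNAs (snoRNAs), Gas5, Snhg1, Snhg3, Snhg6, Snhg8 and Snhg12, and 2 RNAs of nuclear bodies, Malat1 and Neat1, in mouse oocytes and early embryos. These 8 were picked by symbol, with no threshold on a measured value but with earlier results of these data known, from the 55471 genes of the SLIM-seq table. SLIM-seq is a low-input immunoprecipitation of RNA with an antibody to N6-methyladenosine (m6A). It was run on B6D2F1 mouse MII oocytes, late 1-cell embryos (L1C) and late 2-cell embryos (L2C), with 3 immunoprecipitated (IP) and 3 input libraries at each stage. A second experiment held L2C embryos injected as zygotes with Cas13d mRNA plus 3 crRNAs against the m6A reader Ythdc1 (Ythdc1 KD, 3 libraries), or with Cas13d mRNA and no crRNA (Ctrl, 3 libraries). Both groups thus carried Cas13d, and no crRNA without a target in the embryo was part of the comparison. The study states that IP and input RNA came from the same batches. Whether the 3 replicates of a group came from separate collections is not given in the sources used here, so p-values measure the spread between these libraries.

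A snoRNA host gene is transcribed and spliced so that its introns release snoRNAs, which guide methylation or pseudouridylation of ribosomal RNA, while the spliced exons remain as a long ncRNA. Several host transcripts begin with a run of pyrimidines, the feature of the terminal oligopyrimidine class that also holds ribosomal protein mRNAs, and many spliced host RNAs are degraded by nonsense-mediated decay when they are translated. Malat1 is retained in nuclear speckles, where splicing factors gather, and is one of the RNAs known to carry m6A in somatic cells, where YTHDC1 binds it. Its mature 3′ end is a triple helix rather than a long poly(A) tail. Neat1 is the scaffold of paraspeckles, nuclear bodies that form only on its long isoform.

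SLIM-seq libraries held 11107421 to 39739950 estimated counts, and whole KD and Ctrl libraries 8696476 to 14500548 counts. Counting error alone is therefore large for a member with a handful of reads, and a change in a member with fewer than 20 counts per library in both groups is given as counts, without a fold. Levels are given as CPM, the usual scaling of a gene's count to the total of its library, here with TMM factors, and describe a share of the library. Fewer cells of a type and less RNA per cell cannot be told apart in such libraries, nor was RNA per embryo measured in these tables. Summed levels of 8 oocyte markers were 9293 to 11055 CPM in MII inputs, 5697 to 6574 in L1C and 684 to 712 in L2C. Summed levels of 7 2-cell markers were 7.55 to 9.54, 98.1 to 145 and 450 to 632 CPM at the same stages. Summed levels of 10 cumulus cell markers were 54.2 to 64.5, 40.9 to 41.9 and 6.44 to 7.65 CPM. Of these 10 genes, 5 were under 1 CPM on average in MII inputs and Ptx3 was at 0 in every input library, while Cyp19a1 held 37.9 to 47.8 CPM at MII. By the study's methods, cumulus cells were taken off MII oocytes with hyaluronidase. The part of these other cells in the results below was not tested.

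In GRCm38, Gas5 lies on the plus strand at chr1:161034422-161038539 and holds 10 annotated snoRNA genes, and Snhg1 lies on the plus strand at chr19:8723475-8726443 and holds 8. Snhg12 is on the plus strand at chr4:132308623-132311024 with 5 snoRNA genes, and Snhg3 is on the minus strand at chr4:132348014-132353686 with 2. Snhg6 (minus strand, chr1:9941959-9944118) and Snhg8 (minus strand, chr3:123507552-123508404) hold 1 each. Malat1 (chr19:5795690-5802672) and Neat1 (chr19:5824708-5845478) are neighbours on the minus strand. Several spans are shared with other genes. Reads there cannot be told apart without strand, and for genes on the same strand not by strand either. Snhg3 lies within Rcc1, on the same strand, for 5592 of its bases, and Gm17300 lies inside Snhg3 on the other strand. Gm37376 lies inside Malat1 on the other strand, Gas5 overlaps Zbtb37 by 428 bases, and Snhg6 overlaps Mcmdc2 by 127.

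The start sites are shown because the pyrimidine run is the sequence feature for which host transcripts are known, and because all 6 hosts rose from L1C to L2C. RefSeq (GRCm38.p6) promoters were present for 6 members, 5 hosts and Malat1, with a pair of starts for Gas5. Each line below runs from 40 bases before the start site to 50 from it on, 5′ to 3′ on the transcribed strand, and capitals mark the longest run of C and T that reaches into the 20 bases on either side of the start, the first one where runs tie.
Gas5, upstream start, chr1:161034561-161034650, plus strand: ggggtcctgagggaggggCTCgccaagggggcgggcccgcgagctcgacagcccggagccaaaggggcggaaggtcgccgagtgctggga
Gas5, downstream start, chr1:161035126-161035215, plus strand: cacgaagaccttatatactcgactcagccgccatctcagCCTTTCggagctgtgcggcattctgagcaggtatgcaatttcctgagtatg
Snhg1, chr19:8723447-8723536, plus strand: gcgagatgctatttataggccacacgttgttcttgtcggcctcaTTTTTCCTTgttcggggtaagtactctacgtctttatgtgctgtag
Snhg3, chr4:132353637-132353726, minus strand: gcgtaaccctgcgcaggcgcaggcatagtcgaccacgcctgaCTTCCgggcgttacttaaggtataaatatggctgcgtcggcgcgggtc
Snhg8, chr3:123508287-123508376, minus strand: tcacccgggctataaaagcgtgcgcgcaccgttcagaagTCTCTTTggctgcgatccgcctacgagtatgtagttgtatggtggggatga
Snhg12, chr4:132308638-132308727, plus strand: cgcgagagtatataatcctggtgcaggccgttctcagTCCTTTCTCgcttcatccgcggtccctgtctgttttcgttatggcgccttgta
Malat1, chr19:5802623-5802712, minus strand: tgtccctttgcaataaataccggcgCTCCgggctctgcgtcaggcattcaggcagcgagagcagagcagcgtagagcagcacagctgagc

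A run of at least 7 pyrimidines was present in 3 of the 6 host windows (Snhg1 and Snhg12 with 9 bases, Snhg8 with 7), and in 30.2% of all 32851 promoters in the table. Runs of 6 and 5 bases stood at the downstream start of Gas5 and at Snhg3. The letters TATA, which read the same on both strands, occurred in the 40 bases before the start in 4 of the 6 host windows, those of Snhg1, Snhg8, Snhg12 and the downstream start of Gas5, and in 7.6% of all promoters. A match of letters is a description of the window and not a mapped start or factor site.

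All 6 hosts rose from the 1-cell to the 2-cell stage. Gas5, the most abundant host by CPM, stood at 6.27, 6.65 and 8.45 CPM in MII inputs, 6.54, 3.48 and 3.57 in L1C inputs and 28.2, 21.6 and 27.8 in L2C inputs. All 3 L2C libraries lay above all MII and L1C libraries, while MII and L1C overlapped. Gas5 rose 6.70-fold from L1C to L2C (log2 2.74 ± 0.24 SE, adjusted p = 8.07e-08, edgeR). From MII to L1C its log2 difference was -0.56 ± 0.25, which did not pass (adjusted p = 0.0672). Over libraries left out this difference was -0.91 to -0.40 (edgeR, adjusted p from 0.00365 to 0.212), and it passed with no filter on low counts and by DESeq2. Snhg1, which hosts a cluster of box C/D snoRNAs, was at 0.264, 0.839 and 0.201 CPM in MII, 1.79, 0.844 and 1.27 in L1C and 10.6, 8.52 and 10.7 in L2C. It was the one member that rose at both steps, 3.16-fold from MII to L1C (adjusted p = 0.00636) and 8.95-fold from L1C to L2C (adjusted p = 6.72e-07), with 22 counts in all over the MII inputs and 74 over the L1C inputs. The first of these rested on few reads, and without MII input replicate 2 it was log2 2.52 in place of 1.66.

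Snhg6, host of Snord87, stood at 1.53, 1.86 and 1.81 CPM in MII inputs, 1.07, 1.48 and 1.88 in L1C and 7.68, 5.55 and 8.87 in L2C. It differed by log2 -0.16 ± 0.30 between L1C and MII (adjusted p = 0.684) and rose 5.95-fold from L1C to L2C (adjusted p = 6.10e-07). Snhg8, host of Snora24, ran from 0.300 to 0.603 CPM in MII, 0.291 to 0.666 in L1C and 2.93 to 4.90 in L2C, a 9.67-fold rise from L1C (adjusted p = 1.35e-06). MII and L1C libraries of both genes overlapped, and no L2C library of either overlapped an earlier one.

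The pair of hosts on chromosome 4 was at or near 0 before the 2-cell stage. Snhg12, host of Snora16a, Snora44, Snora61 and Snord99, had 0 counts in all MII and L1C inputs and 45, 32 and 74 counts in the L2C inputs, or 1.58 ± 0.21 CPM (SD, n = 3). Against a floor of 3 counts per library this was at least 9.75-fold higher than L1C and at least 8.77-fold higher than MII. Snhg3, host of Snora73a and Snora73b, had 2, 4 and 0 counts in MII inputs, 0 in all L1C inputs and 166, 118 and 197 in L2C inputs, at least 32.1-fold above L1C. With Rcc1 and Gm17300 added to Snhg3, a sum that is mostly Rcc1, L2C was above L1C by log2 1.44 (adjusted p = 2.51e-07) and above MII by 0.65 (adjusted p = 0.000536). The difference between 6 counts at MII and 0 at L1C passed the test (adjusted p = 0.0271), but both lie near the floor and it did not pass without MII input replicate 2 (adjusted p = 0.100). Over the same stages Rcc1, whose span covers most of Snhg3, stood at 139 ± 7, 75.8 ± 14.9 and 165 ± 8 CPM, so the absence of Snhg3 counts at L1C stood beside many counts for its overlapping neighbour.

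Malat1 was the member with the highest CPM at every stage and, with Neat1, had a smaller difference from L1C to L2C than any host. MII inputs held 15.0, 16.5 and 12.1 CPM of it, L1C inputs 20.6, 14.8 and 14.1, and L2C inputs 64.9, 44.9 and 45.7. It rose 3.71-fold from L1C to L2C (log2 1.89 ± 0.20, adjusted p = 4.55e-07), and its MII and L1C libraries overlapped (log2 0.27 ± 0.20, adjusted p = 0.264). Neat1 was scarce, with 9 to 15 counts per MII input, 14 to 25 per L1C input and 68 to 91 per L2C input. It rose 3.07-fold from L1C to L2C (log2 1.62 ± 0.37, adjusted p = 0.00103), the smallest L1C to L2C rise of the 8. Its L1C replicate 3, at 1.51 CPM, was well above the others at 0.678 and 0.739 but below the lowest L2C library at 2.23.

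All 8 members were higher in L2C than in L1C inputs, where 44.1% of the 19903 genes tested were called higher. Snhg3 and Snhg12, with at most 4 counts in any MII or L1C input, passed the filter on low counts through the L2C libraries alone. Their direction was thus set by the filter, and the counts and medians given here include them. All 8 were also higher in L2C than in MII, where 47.5% of genes were called higher and 37.1% lower. Their median log2 difference from L1C to L2C was 2.95, beside 0.17 over all genes tested, and did not change when Snhg3 and Snhg12 were set to their lower bounds. From MII to L2C it was 3.02, or 2.78 with Snhg12 at its bound, beside 0.40 over all genes. From MII to L1C 1 of 8 was called higher and 1 lower, where 31.9% and 24.3% of genes were.

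**Figure D1:**
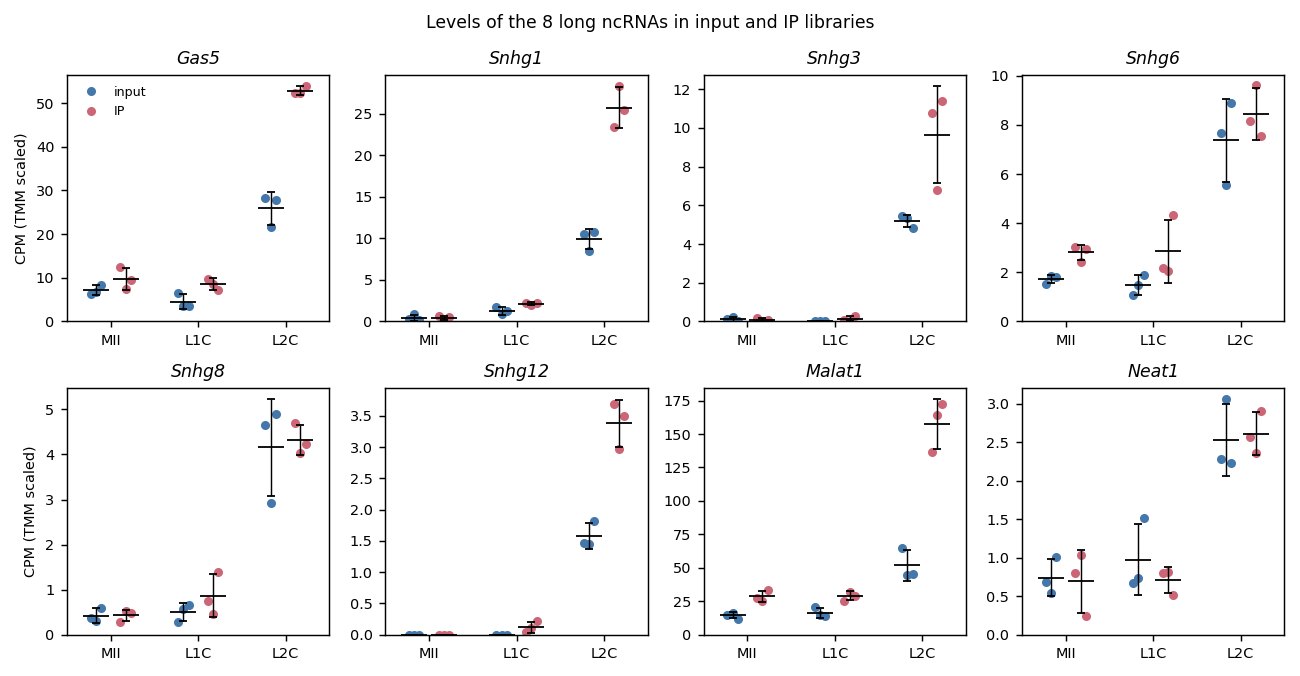
Level of each long ncRNA in CPM (vertical axes, linear, 1 scale per panel) in the 3 input (blue) and 3 IP (red) libraries at MII, L1C and L2C, with black bars for mean ± SD. All 8 input levels are highest at L2C, and the IP libraries lie apart from the inputs there for Gas5, Snhg1, Snhg3, Snhg12 and Malat1 but overlap them for Snhg6, Snhg8 and Neat1.

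Between genes, levels were compared per length, as TPM (each gene's count divided by its length, then scaled to the same total in every library) over gene spans. In L2C inputs the order was Malat1 (38.3 ± 9.5 TPM, SD, n = 3), Snhg8 (35.7 ± 9.1), Gas5 (33.4 ± 5.2), Snhg6 (19.5 ± 4.4), Snhg1 (18.4 ± 2.4), Snhg3 (4.76 ± 0.40), Snhg12 (3.68 ± 0.41) and Neat1 (0.608 ± 0.108). The first 3 overlapped each other library by library, as did Snhg6 and Snhg1, while Snhg3, Snhg12 and Neat1 were each separate from their neighbours. In MII inputs Malat1 (14.2 ± 2.2 TPM) and Gas5 (12.1 ± 1.8) led, followed by Snhg6 (5.98 ± 0.58) and Snhg8 (4.59 ± 1.65). In L1C inputs Malat1 stood alone at 14.0 ± 2.9 TPM, above Gas5 (6.74 ± 2.53), Snhg8 (5.24 ± 2.01) and Snhg6 (4.53 ± 1.30), which overlapped. Spans hold introns, and annotated exons fill 986 of 5673 bases for Snhg3 and 1146 of 2160 for Snhg6, but the whole span for Malat1. The order differed per kilobase of exon in the L2C Ctrl libraries (CPM without TMM factors). Gas5 (99.8) led Malat1 (56.0), Snhg6 (36.1), Snhg1 (32.2), Snhg8 (31.6), Snhg12 (8.82), Snhg3 (1.25) and Neat1 (0.246).

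Almost no counts were assigned to the snoRNA genes inside the hosts. Of the 27 annotated snoRNA genes inside the 6 hosts, 60 to 205 bases long, 1, Snora44 inside Snhg12, had an estimated count above 0 in any SLIM-seq library, at 0.5 in 1 library. In the KD experiment 1 had counts above 0, Snord87 inside Snhg6, with 12, 2 and 7 counts in the KD libraries and 0, 0 and 1 in the Ctrl libraries. These counts do not measure the snoRNAs. A read within a snoRNA also fits the span of its host in the SLIM-seq targets, and in the KD experiment it is counted for neither gene where the counted exons of the host cover it. Whether host levels hold reads of snoRNAs was not tested.

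Most tested genes of 3 lists tied to snoRNA hosts also rose at this step. Of 16 other snoRNA hosts listed 13 passed the filter on low counts, of which 12 rose from L1C to L2C and 1 fell. A host with reads at L2C alone could pass the filter through those libraries, so that this count is no measure of the whole list. The largest rises were those of Snhg9, at least 26.6-fold from 0 counts at L1C, Dancr (log2 6.70) and Snhg17 (5.55), and Snhg18 fell (log2 -0.88). All 17 genes for snoRNP proteins and their assembly factors rose, with a median of 2.62. Among them were Znhit3, a box C/D assembly factor (log2 7.07), Fbl, the box C/D methyltransferase fibrillarin (5.98), and Nhp2, a box H/ACA core protein (5.66). Of 15 factors of nonsense-mediated decay 13 rose and none fell, with a median of 1.27, led by Casc3 (4.52), Smg5 (3.84) and the exon junction helicase Eif4a3 (3.19).

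Genes for the proteins of the nuclear bodies were mixed. Of 13 paraspeckle protein genes 9 rose and 3 fell from L1C to L2C. Pspc1 (log2 4.22), Hnrnpm (3.16) and Smarca4 (2.81) rose most, while Matr3 (-1.64), Nono (-1.17), one of the core paraspeckle proteins, and Tardbp (-0.55) fell. Of 11 nuclear speckle genes 8 rose, led by the splicing factors Srsf1 (4.14), Srsf7 (3.29) and Srsf2 (2.2), and 3 fell, Clk1 (-0.85), Srsf3 (-0.75) and Luc7l3 (-0.38). Of 13 other nuclear long ncRNAs listed 8 were tested, of which 2 rose, Kcnq1ot1 (at least 15.4-fold from 0 counts at L1C) and Tug1 (log2 1.99), and 3 fell, Pvt1 (-3.06), Airn (-1.85) and Rian (-1.53). Of 6 genes for m6A writing and Malat1 binding, Mettl16 (1.43), Hnrnpa2b1 (1.15) and Ythdc1 (0.78) rose and the m6A methyltransferase subunits Mettl3 (-2.48) and Mettl14 (-1.88) fell. Here 44.1% of all genes were called higher and 38.8% lower.

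**Figure D2:**
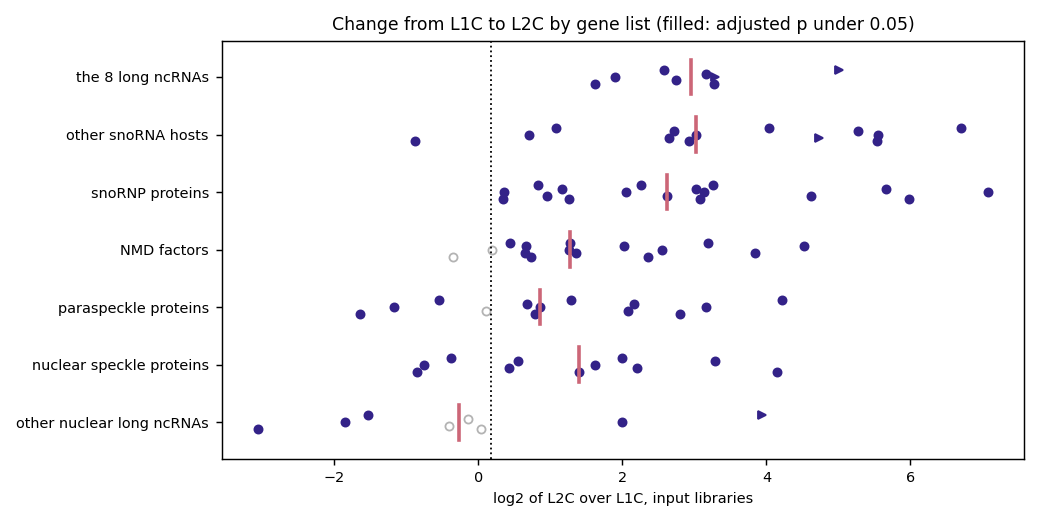
Log2 of L2C over L1C in input libraries (horizontal axis) for each tested gene of 7 lists, filled where the adjusted p was under 0.05, with a red bar at the list median and a dotted line at the median of all genes (0.17). Triangles are lower bounds for genes with 0 counts at L1C, and all points of the 8 long ncRNAs and of the snoRNP proteins lie to the right of the dotted line.

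The IP over input comparison asks which RNAs the m6A antibody enriched at a stage. GGACT, a frequent form of the m6A consensus in mammals, was counted on the transcript strand to show what the members offer to this comparison. The longest Malat1 transcript, 6983 bases, holds 9 GGACT (1.29 per kilobase) and that of Neat1, 20771 bases, holds 23 (1.11). The median is 0.952 over 9603 long noncoding genes, of which 67.4% have at least one, and 1.00 over 21951 protein-coding genes. Among the longest spliced transcripts of the hosts Gas5 and Snhg6 hold 1 each, and Snhg1, Snhg3, Snhg8 and Snhg12 hold none. Single GGACT of Snhg1 and Snhg8 lie in their retained-intron transcripts, that of Gas5 holds 3, and the spliced Gas5 one spans an exon junction. By the shorter GGAC, the longest transcripts of Malat1 and Neat1 hold 2.29 and 4.00 per kilobase and that of Gas5 5.87. The medians are 3.53 over long noncoding and 3.84 over protein-coding genes. The spliced transcripts of Snhg1, Snhg3 and Snhg8 hold 1 GGAC each, that of Snhg12 holds 2, that of Snhg6 3 and that of Gas5 5. The sites of Malat1, the member enriched at every stage, and the spliced sites of Gas5 and Snhg6 are printed with 10 bases on either side, GGACT in capitals.
Malat1, chr19:5801559-5801563, minus strand: aaagctactaGGACTgaagtaaaaa
Malat1, chr19:5801465-5801469, minus strand: gatgacaaaaGGACTtttgataaca
Malat1, chr19:5801423-5801427, minus strand: attttgcattGGACTtgagctgagg
Malat1, chr19:5801283-5801287, minus strand: aagctaggaaGGACTgaggagccag
Malat1, chr19:5800206-5800210, minus strand: acaccttcagGGACTggagctgcct
Malat1, chr19:5799747-5799751, minus strand: gctacagtggGGACTcttctgaagc
Malat1, chr19:5798140-5798144, minus strand: gtctaactaaGGACTaagtacctta
Malat1, chr19:5797857-5797861, minus strand: gagctgctcaGGACTttgcatataa
Malat1, chr19:5796719-5796723, minus strand: ttagcagtggGGACTaccctaccgt
Gas5, across an exon junction, chr1:161036014-161036211, plus strand: aggcttacgaGGACTcgtcaggaag
Snhg6, chr1:9942628-9942632, minus strand: caagctgccaGGACTacatttgcca
The libraries do not place m6A within a transcript, and no site above was measured.

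Malat1 was enriched in the IP at all 3 stages. At MII its IP libraries held 27.6, 25.0 and 33.5 CPM against inputs of 15.0, 16.5 and 12.1, a 1.97-fold enrichment (log2 0.98 ± 0.19, adjusted p = 0.000290). At L1C the IP libraries held 25.5, 32.3 and 29.3 CPM against 20.6, 14.8 and 14.1, or 1.76-fold (log2 0.82 ± 0.18, adjusted p = 0.00167). At L2C they held 137, 164 and 172 CPM against 64.9, 44.9 and 45.7, or 3.04-fold (log2 1.60 ± 0.18, adjusted p = 9.70e-07). At no stage did an IP library of Malat1 overlap an input. Gm37376, inside Malat1 on the other strand, was at 21.1 to 24.7 CPM in L2C inputs and 39.3 to 98.2 in L2C IP (log2 1.5 ± 0.23, adjusted p = 3.48e-05). With its counts added to Malat1, the enrichment of Malat1 was still called at all 3 stages.

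Neat1 passed at no stage. At L2C its IP libraries held 2.57, 2.36 and 2.91 CPM and its inputs 2.29, 3.07 and 2.23, which overlapped (log2 0.06 ± 0.35, adjusted p = 0.914). At L1C the difference was -0.45 ± 0.42 (adjusted p = 0.442), on 14 to 25 counts per library. At MII it had 4 to 20 counts per library, too few for a fold.

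At L2C 3 hosts were called higher in the IP, and differences between hosts were not tested. Gas5 held 52.3, 52.4 and 54.0 CPM in the IP against 28.2, 21.6 and 27.8 in the inputs (2.04-fold, log2 1.03 ± 0.21, adjusted p = 0.000665). Snhg1 held 23.4, 28.3 and 25.5 against 10.6, 8.52 and 10.7, the highest ratio of the hosts (2.58-fold, log2 1.37 ± 0.27, adjusted p = 0.000478). Snhg12 held 3.69, 2.96 and 3.49 against 1.47, 1.44 and 1.81 (2.14-fold, log2 1.10 ± 0.35, adjusted p = 0.0232). Its call was lost when any of 4 of the 6 L2C libraries was left out (adjusted p up to 0.0827). In these 3 genes every IP library lay above every input.

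Snhg6 and Snhg8 showed no such separation. Snhg6 held 8.16, 9.62 and 7.53 CPM in the L2C IP against 7.68, 5.55 and 8.87 (log2 0.19 ± 0.26, adjusted p = 0.591), and Snhg8 held 4.69, 4.04 and 4.23 against 4.64, 2.93 and 4.90 (log2 0.05 ± 0.32, adjusted p = 0.918). Snhg3 lay between, with 10.8, 6.80 and 11.4 CPM in the IP against 5.43, 5.32 and 4.83. Its IP libraries did not overlap its inputs, but the difference missed the threshold (log2 0.90 ± 0.37, adjusted p = 0.0558). It passed by DESeq2 (adjusted p = 0.0166), with library size alone, RLE scaling, no filter on low counts or the L2C libraries alone. It also passed without any 1 of 5 of the 18 libraries, and its log2 ratio was 0.77 to 1.09 over libraries left out. Gm17300, on the other strand inside Snhg3, had 1465, 444 and 867 counts in the L2C IP against 215, 51 and 144 (log2 2.72 ± 0.35, adjusted p = 9.34e-05). Rcc1 was lower in the IP (log2 -1.57 ± 0.15, adjusted p = 1.37e-07). The sum of the 3 genes, which is mostly Rcc1, was lower in the IP too (log2 -0.90, adjusted p = 3.63e-05). How reads at this locus are split between the 3 genes was not tested.

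At the earlier stages the hosts had fewer reads. At L1C Gas5 held 9.78, 8.68 and 7.11 CPM in the IP against 6.54, 3.48 and 3.57 (1.86-fold, adjusted p = 0.00540). Snhg6 held 2.18, 2.06 and 4.32 against 1.07, 1.48 and 1.88 (1.97-fold, adjusted p = 0.0156), and without L1C IP replicate 3, the highest of them, its log2 ratio fell from 0.98 to 0.53 and the call was lost (adjusted p = 0.170), as it was without L1C input replicate 1 (adjusted p = 0.0799) and with the L1C libraries alone (adjusted p = 0.0565). Snhg1 (log2 0.71 ± 0.33, adjusted p = 0.109) and Snhg8 (log2 0.81 ± 0.42, adjusted p = 0.156) were not called. Snhg12 with 1, 3 and 8 counts and Snhg3 with 2, 1 and 11 counts in the L1C IP passed against inputs at 0 (adjusted p = 0.0108 and 0.0281), and neither passed without replicate 3 (adjusted p = 0.0508 and 0.157). At MII Gas5 (log2 0.46 ± 0.23, adjusted p = 0.126) and Snhg6 (log2 0.70 ± 0.30, adjusted p = 0.0790) were not called, although the 3 Snhg6 IP libraries, at 2.44 to 3.03 CPM, lay above all inputs, at 1.53 to 1.86. Snhg1, Snhg3 and Snhg8 had at most 14 counts in any MII library, and Snhg12 had none.

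The IP called 1 of 8 members higher at MII, where 17.7% of 21950 genes were higher and 21% lower. At L1C it called 5 of 8, where 15.8% were higher and 18.2% lower, and at L2C 4 of 8, where 22% were higher and 22% lower. The 5 at L1C include Snhg3 and Snhg12, which had 0 counts in the L1C inputs and did not pass the filter with the L1C libraries alone, a fit in which 2 members, Malat1 and Gas5, were called. No member was called lower at any stage. By a simplified form of the rule of the study, applied to edgeR p-values (unadjusted p under 0.05, higher in the IP, more than 1 count in each input), 2, 4 and 5 members were called at the 3 stages, where 19.2%, 18.6% and 23.9% of genes were. Ratios of IP to input depend on the scaling. With library size alone the median gene moved up by 0.20, 0.30 and 0.25 on the log2 scale in stage order, and the share of calls that were higher went from 45.7% to 61.7%, from 46.5% to 70.9% and from 50.0% to 67.6%. Of 13 other snoRNA hosts tested 5 were called higher and none lower at L2C, namely Snhg14, Zfas1, Dancr, Snhg18 and Snhg5. Of 17 snoRNP protein genes 3 were higher (Naf1, Nop10 and Snu13) and 4 lower (Ruvbl2, Ruvbl1, Nop56 and Pih1d1), and of 11 nuclear speckle genes 9 were higher and none lower. Of 13 paraspeckle protein genes 2 were higher, Sfpq and Matr3, and 5 lower, Hnrnpm and Rbm14 among them. Of 15 nonsense-mediated decay factors 6 were higher and 3 lower (Smg5, Smg9 and Smg8), and of 8 other nuclear long ncRNAs 3 were higher (Kcnq1ot1, Airn and Pvt1) and 2 lower (Rpph1 and Tug1).

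**Figure D3:**
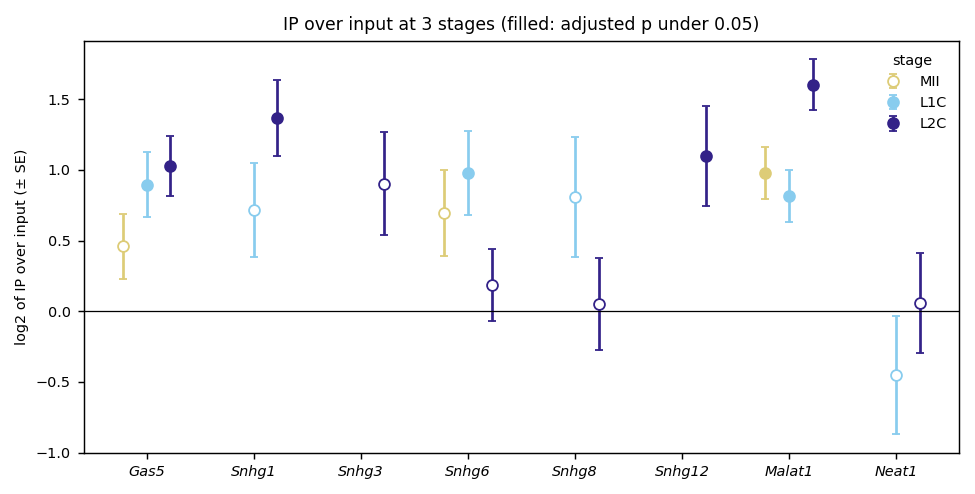
Log2 of IP over input (vertical axis, edgeR estimate ± SE) for each long ncRNA at MII, L1C and L2C, filled where the adjusted p was under 0.05, for members with a mean of at least 20 counts in a group and no group at 0. Malat1 is filled at all 3 stages and highest at L2C (1.60), Gas5 is filled at L1C and L2C, Snhg1 and Snhg12 at L2C and Snhg6 at L1C.

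A change of enrichment from stage to stage was tested with an interaction term. No member passed in any of the 3 steps. Of all genes 3.13% were called higher and 4.21% lower for L1C minus MII, 5% and 4.47% for L2C minus L1C, and 11.1% and 9.21% for L2C minus MII. At an unadjusted p under 0.05 there was 1 member for L1C minus MII (Snhg3), 3 for L2C minus L1C (Snhg3, Snhg12 and Malat1) and 2 for L2C minus MII (Snhg1 and Malat1). DESeq2 called 1, 1 and 0, Snhg3 at the first step and Malat1 at the next. The change of Malat1 from L1C to L2C was the nearest (log2 0.79 ± 0.25, adjusted p = 0.0547). It passed by DESeq2 (adjusted p = 0.0452), with no filter on low counts (adjusted p = 0.0266), without L1C input replicate 3, L2C input replicate 1 or L2C IP replicate 1, and with Gm37376 added, and its adjusted p ranged from 0.0210 to 0.176 over libraries left out. From MII to L2C Malat1 changed by 0.62 ± 0.25 (adjusted p = 0.0913). Gas5 differed by 0.13 ± 0.31 from L1C to L2C (adjusted p = 0.853) and Snhg6 by -0.79 ± 0.39 (adjusted p = 0.227). The enrichment of Snhg6, called at L1C and not at L2C, was therefore not shown to differ between them.

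The knockdown comparison asks what changes in L2C embryos when Ythdc1, the nuclear m6A reader, is lowered. Ythdc1 stood at 523, 541 and 519 CPM in the KD libraries and 1080, 1098 and 994 in Ctrl (log2 -1.0 ± 0.06, adjusted p = 1.34e-10), so the targeted RNA was lowered in every KD library and remained present. The merged table ends within chromosome 7 and serves 5 members with 3 libraries a group. CPM of Ythdc1 and these members are scaled to the table, which holds 37.5% to 39.03% of a whole library, and are not comparable with the whole-library CPM given for the others. The members on chromosome 19, Snhg1, Malat1 and Neat1, were tested with 2 KD and 3 Ctrl libraries, since KD replicate 3 stops at the same gene. In these whole libraries summed 2-cell markers were 307 to 344 CPM in KD and 1054 to 1106 in Ctrl, all 7 called lower, and summed oocyte markers 438 to 457 and 715 to 730. Summed cumulus cell markers were 8.56 to 10.5 CPM in KD and 12.4 to 13.5 in Ctrl. Of the 10 listed, 3 were tested, of which 2 were called lower and none higher. The part of these differences in the values below was not tested.

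Gas5 changed little. It had 874, 829 and 861 CPM in KD and 991, 988 and 899 in Ctrl, without overlap (log2 -0.17 ± 0.06, adjusted p = 0.0207). The call was lost without KD replicate 2 or 3 or Ctrl replicate 1 or 2 (adjusted p 0.0576 to 0.121), and in the 5 whole libraries, at 328 ± 14 CPM in KD (SD, n = 2) and 368 ± 21 in Ctrl (SD, n = 3), it did not pass (edgeR, adjusted p = 0.0731). Snhg6 (log2 0.07 ± 0.10, adjusted p = 0.555), Snhg8 (-0.17 ± 0.13, adjusted p = 0.248) and Snhg12 (-0.22 ± 0.13, adjusted p = 0.144) overlapped between groups. Snhg3 had 11, 12 and 20 counts in KD and 19, 16 and 10 in Ctrl, too few for a fold. Of these 5, 1 was called lower and none higher, where 37.4% and 33.5% of 7433 genes were.

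Snhg1 fell after knockdown. It had 67.5 and 56.6 CPM in KD and 96.2, 96.8 and 88.9 in Ctrl, a 1.51-fold fall without overlap (log2 -0.60 ± 0.10, adjusted p = 9.76e-05), and the call held with each library left out. Without either KD library the lone one left is assumed to vary like the Ctrl libraries, here and for Malat1. Malat1 had 467 and 421 CPM in KD and 390, 412 and 349 in Ctrl, a 1.16-fold rise without overlap (log2 0.21 ± 0.08, adjusted p = 0.0376). That call was lost without KD replicate 1, Ctrl replicate 1 or Ctrl replicate 3 (adjusted p 0.0685 to 0.296), and with library size alone (adjusted p = 0.139). With replicate number as a block Malat1 was not called either. Here 36.4% of 17074 genes were called lower and 30.5% higher.

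Neat1 had 0 counts in both KD libraries and 51, 69 and 56 counts in the Ctrl libraries (4.99 ± 1.38 CPM, SD, n = 3). With a floor of 3 counts per library it was at least 16.6-fold lower in KD (adjusted p = 1.19e-06). Of 9482 genes with at least 50 counts in each Ctrl library, 12 had 0 counts in both KD libraries, or 0.127%, and the reverse held for 10 of 9026 genes. The limit of 50 lies just under the lowest Ctrl count of Neat1, 51. Genes of any higher level are included, so these shares are a description and not the rate for genes as scarce as Neat1. Its level was low in Ctrl too, at 0.246 ± 0.071 CPM per kilobase of exon, here with CPM scaled to library totals without TMM factors, against 56.0 ± 3.9 for Malat1 and 99.8 ± 4.3 for Gas5.

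**Figure D4:**
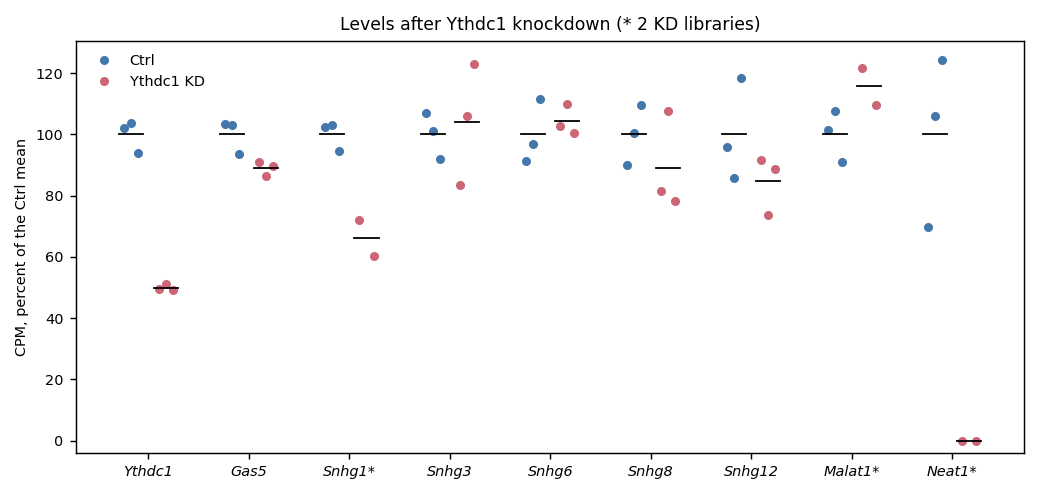
CPM in each KD (red) and Ctrl (blue) library as percent of the Ctrl mean (vertical axis, linear) for Ythdc1 and the 8 long ncRNAs, with black bars for group means and asterisks on genes measured in 2 KD libraries. Both KD points of Neat1 are at 0, those of Snhg1 lie below all Ctrl points, and Snhg3, Snhg6, Snhg8 and Snhg12 overlap.

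Other snoRNA hosts went both ways after knockdown. Of 13 tested in the whole libraries 2 rose, Gm26917 and Snhg14, and 4 fell, Snhg5, Snhg18, Zfas1 and Snhg15, with a median log2 difference of -0.10 beside -0.09 over all genes, of which 30.5% were called higher and 36.4% lower. Snhg5 had 38.3 and 41.4 CPM in KD and 107, 104 and 88.2 in Ctrl (log2 -1.33 ± 0.11, adjusted p = 6.55e-08). Of 17 snoRNP protein genes 13 rose and none fell (median 0.48). Of 15 nonsense-mediated decay factors 10 rose and 1, Upf3a, fell (median 0.47). Of 13 paraspeckle protein genes 8 rose (median 0.53). Of 11 nuclear speckle genes 5 rose, Srsf3, Srsf7, Pnn, Son and Luc7l3, and Srsf2 fell. Of 6 other nuclear long ncRNAs none rose and 4 fell, Rian, Airn, Pvt1 and Meg3. Of the 6 genes for m6A writing and Malat1 binding Mettl14, Mettl16, Hnrnpa2b1 and Mettl3 rose and Ythdc1 fell. List genes named here and in the IP were chosen after their values were seen.

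Over the 18 SLIM-seq libraries the 8 members ran together, with Pearson r of log2(CPM + 1) between 0.72 and 0.99 over their 28 pairs and a median of 0.91. These points share libraries, stages and depth, so r is a description. Of 11551 genes compared, those most like Gas5 were 2700099C18Rik (r = 0.991), Sf3b6 (0.990) and Ahctf1 (0.984), and those most like Snhg1 were Myo7b (0.996), Epm2a (0.991) and Gm13191 (0.991). Snhg3 was most like Gm47979 (0.995), Gm15809 (0.994) and Gm12617 (0.993), Snhg12 like Gm16381 and Gm2001 (0.996 each, with the same value) and Gm11546 (0.994). Snhg6 was most like Imp3 (0.985), Ddt (0.985) and Tomm6 (0.975), and Snhg8 like Uty (0.985), Abt1 (0.981) and Nudcd2 (0.981). Malat1 was most like Prkd1 (0.989), Fam76b (0.982) and Fbxo33 (0.981). Neat1 had the lowest values, with Rcl1 (0.953), Bcs1l (0.951) and Dennd5a (0.949).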

How the data were processed

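SLIM-seq values were the estimated counts the authors deposited from kallisto, per gene, and TPM values were those the authors deposited from the same runs. The targets were whole gene spans, introns included, so genes with shared spans share reads. KD and Ctrl values were counts the authors deposited from featureCounts 2.0.1 over exons (Ensembl 99, GRCm38, no strand option, so that reads over more than 1 gene are counted for none). The labels name a stranded SMART-Seq kit and the study's methods an oligo-dT Smart-seq2 protocol. Estimated counts were rounded. Genes were tested with edgeR 4.0.16 (quasi-likelihood, TMM, filterByExpr, Benjamini-Hochberg over all genes tested, call at adjusted p under 0.05), in R 4.3.3. DESeq2 1.42.0 was an alternative. Scripts were tested on simulated data. Replicates differed by more than sampling noise (chi-square per gene of at least 2.77). A fold is given where a group averaged 20 counts per library, a limit set after the data were seen. Floors cover counting error only. Named genes were the members, snoRNA genes inside their spans with a mean of 10 counts (there were none, and Snord87 was named after its values were seen), the 3 genes most like each member, and up to 3 rises and 3 falls per list from L1C to L2C. List genes named in the IP and after knockdown do not follow this limit and were picked after their values were seen. Members and lists were chosen with earlier results of these data known. A member of the paraspeckle list is not reported here. GENCODE M21 and RefSeq gave annotation.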

Additional observations from a re-analysis of the deposited data

How the results depend on the processing

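The number of members called in the IP at MII, in either direction, was 1, and became 3 with library size alone (Snhg6 and Gas5 added) and 2 with RLE scaling, with the libraries of that stage alone, by DESeq2 and by the simplified rule of the study (Snhg6 added), and 2 with Gm17300 and Rcc1 added to Snhg3, a sum mostly of Rcc1 that was lower in the IP (-1.76), and it was 1 to 2 over libraries left out. At L1C it was 5, 7 with library size alone, 6 by DESeq2, 4 with the replicate block and by the simplified rule, 2 with that stage's libraries alone (Snhg3, Snhg6 and Snhg12 lost) and 2 to 5 over libraries left out. At L2C it was 4, 4 to 5 in the other fits and 3 to 5 over libraries left out. For a change of enrichment 0 members passed. This became 1 for L1C minus MII and for L2C minus L1C with no filter and by DESeq2, 1 for L1C minus MII and L2C minus MII with the Snhg3 sum, and 1 for both L2C steps with Gm37376 added to Malat1, and it was 0 to 1 for both over libraries left out. In inputs 2 members were called from MII to L1C, 3 with no filter and by DESeq2 (Gas5 added), 1 with those stages alone and 1 to 2 over libraries left out. After knockdown 1 member of the merged table was called, 2 with library size alone (Snhg12 added), 0 in the 5 whole libraries, 0 by the knockdown thresholds of the study (log2 change past 1, unadjusted p under 0.05) and 0 to 1 over libraries left out. Over the whole annotation 3 were called, 4 with no filter (Gas5 added), 1, Neat1, by those thresholds and 2 to 3 over libraries left out, and with library size alone or the block Gas5 passed in place of Malat1. The 2 sums and the 5-library fit were added after the data were seen.

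Signs turned for values that passed in neither setting, except for the sum of Snhg3 with its neighbours, which is mostly Rcc1. That sum was lower in the IP at L1C (-0.93), where Snhg3 alone had passed as higher, and at L2C (-0.90). The enrichment change of Malat1 from MII to L1C was 0.11 and its input change -0.17 with Gm37376 added. That of Gas5 from L1C to L2C was -0.048 with those stages alone, and Snhg6 after knockdown was -0.058 with library size alone. Over libraries left out, the IP ratio at L2C was -0.15 to 0.18 for Snhg8 and -0.038 to 0.20 for Neat1. Enrichment changes from MII to L1C were -0.17 to 0.48 for Snhg6 and -0.27 to 0.028 for Malat1, and -0.24 to 0.29 for Gas5 from L1C to L2C. The input change of Snhg6 from MII to L1C was -0.37 to 0.050, and Snhg8 after knockdown in whole libraries was -0.27 to 0.12. The cause was not tested. Among member values with enough counts to be given, 985 kept direction and side of the threshold, 15 turned, 37 passed newly and 17 no longer passed.

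Libraries with the same replicate number shared little deviation from their group means (correlation -0.15 to 0.16), which does not show whether they were paired. With a replicate block, enrichment changes over all genes went from 2079 to 1168 calls for L2C minus L1C and from 1609 to 1067 for L1C minus MII. The first was also 1367 without L1C IP replicate 3 and 1269 without L2C IP replicate 3. After knockdown Malat1 was 0.15 (adjusted p = 0.0684) and Gas5 in whole libraries -0.21 (adjusted p = 0.00757) with the block. Depth limits Neat1, Snhg3, Snhg8 and Snhg12 before L2C, and Snhg1 at MII.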
